A study of Mus musculus with 33 samples.

Results

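Fc receptors bind the constant part of antibodies. The genes described here are 6 mouse Fc receptor genes, Fcgr1, Fcgr3, Fcgr4, Fcer1g, Fcgr2b and Fcgrt, chosen by name among the 53735 gene names of the study's tables. All 6 were found in each of the 9 tables, and all 6 were tested in each. They were followed in inflammatory monocytes, tumour macrophages and CD8 T cells taken from irradiated and interleukin 12 (IL-12) treated pancreatic tumours. The activating receptors were set against the inhibitory one.

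The mice were C57BL/6, with the pancreatic cancer line KCKO implanted in the pancreas. Cells were sorted from the tumours by flow cytometry into 3 populations, and their RNA was sequenced. Inflammatory monocytes are called IM below and had the gate CD45+CD11b+Ly6C+Ly6G-. Macrophages of the tumour are called TAM and were CD45+, CD11b+, F4/80+, Ly6G- and moderate for Ly6C. CD8 T cells were CD45+CD8+. Each population had a group without irradiation (unIrr), a group given stereotactic body radiotherapy (SBRT, 4 fractions of 6 Gy on days 6 to 9), a group given IL-12 (microspheres with 0.5 µg, 2 mg of beads, put into the tumour on day 10; IL12) and a group given both, the combination. There were 3 libraries in each IM and CD8 group, and TAM had 3 in the IL12 group and 2 in each other group, 33 libraries in all. All 12 groups share the tumour line and the mouse strain. The labels do not say which groups got empty microspheres, give no genotype beyond the strain and no age, and do not say that libraries of a group came from separate mice, so a p-value here is set by the spread from library to library, which may be technical.

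The authors' deposited tables give, for each gene, a mean level over all libraries of a population (read counts divided by a size factor per library), a log2 fold change of each treated group over unIrr, and the adjusted p of a DESeq2 Wald test run by the authors. They hold no value for a single library, so the depth is unknown and it cannot be said whether the libraries of 2 groups overlap. A gene is said to have risen or fallen where the deposited adjusted p is below 0.05. The standard error (SE) after a fold change is its ratio to the Wald statistic (where the statistic is close to 0, the SE of the population's other tables). The deposited fold changes are shrunken towards 0, which understates the larger ones of weakly measured genes. For some tested genes the fold change and the statistic differ in sign. The ratio taken as the SE, and each interval built from it, is therefore approximate. The 3 comparisons of a population share its unIrr libraries, so they are not independent of each other.

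Activating Fc gamma receptors carry antibody-coated targets to phagocytosis and cell killing. Fcgr1 encodes the high-affinity receptor FcγRI, Fcgr3 the low-affinity FcγRIII, and Fcgr4 the mouse receptor FcγRIV, which binds IgG2 antibodies. All of them signal through the common gamma chain, the product of Fcer1g, whose activation motif is phosphorylated by Src family kinases and then recruits the kinase Syk. Fcgr2b encodes FcγRIIB, the inhibitory receptor, whose own motif recruits the phosphatase SHIP1 (Inpp5d). Fcgrt encodes the heavy chain of the neonatal receptor FcRn, which pairs with B2m inside the cell and returns IgG from endosomes to the surface. In myeloid cells, interferon gamma is known to raise the activating receptors, Fcgr1 and Fcgr4 among them, and the ratio of activating to inhibitory receptors sets how strongly a cell answers to immune complexes.

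On build GRCm38 (GENCODE M21), 4 of the 6 genes lie close together on chromosome 1. Fcgr2b (ENSMUSG00000026656.15) spans chr1:170958617-170976547 on the minus strand, Fcgr4 (ENSMUSG00000059089.4) chr1:171018920-171029761 on the plus strand, Fcgr3 (ENSMUSG00000059498.13) chr1:171051174-171064935 on the minus strand, and Fcer1g (ENSMUSG00000058715.11) chr1:171229572-171234365 on the minus strand. Fcgr1 (ENSMUSG00000015947.10) lies at chr3:96282909-96293969 and Fcgrt (ENSMUSG00000003420.8) at chr7:45092990-45103851, both on the minus strand. The inhibitory Fcgr2b and the activating Fcgr3 resemble each other in the part that codes for the antibody-binding domains. Of the 1298 stretches of 50 bases in a transcript of Fcgr3, 166 (12.8%) occur unchanged in that of Fcgr2b, of whose 3495 stretches they are 4.75%. No other pair of the 6 genes shared such a stretch. Reads from it can be split between Fcgr2b and Fcgr3 by the counting, so the values of both are uncertain to that extent. The longest shared run is 129 bases, from base 278 to 406 of the 1020 coding bases of Fcgr2b and from 263 to 391 of the 801 of Fcgr3, and it is shown in lower case because it is the stretch in which reads of the inhibitory and of an activating receptor look alike:
Fcgr2b and Fcgr3: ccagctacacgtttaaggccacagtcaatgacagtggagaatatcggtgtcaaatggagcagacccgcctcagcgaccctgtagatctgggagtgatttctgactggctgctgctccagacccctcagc

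The sequences before the start of Fcgr4 and Fcgr1 are shown because Fcgr4 was the activating receptor gene called in the myeloid tables and Fcgr1 was not. They come from RefSeq (GRCm38.p6), in which all 6 genes were matched, are cut where an annotated exon begins, and read 5′ to 3′ in the direction of the gene. Capitals mark matches, on either strand, to 3 motifs: TTCNNNGAA, the gamma-activated site (GAS) of interferon gamma responses, an interferon-stimulated response element (ISRE, GAAA, any 2 bases, GAAA) bound by interferon regulatory factors, and GAGGAA, a core of PU.1 sites (Spi1).
Fcgr4, chr1:171018676-171018919, plus strand: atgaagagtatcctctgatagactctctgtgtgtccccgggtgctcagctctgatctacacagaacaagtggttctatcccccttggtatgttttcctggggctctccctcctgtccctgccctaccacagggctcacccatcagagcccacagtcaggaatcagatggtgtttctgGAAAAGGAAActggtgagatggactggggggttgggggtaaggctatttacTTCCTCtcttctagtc
Fcgr1, chr3:96293970-96294219, minus strand: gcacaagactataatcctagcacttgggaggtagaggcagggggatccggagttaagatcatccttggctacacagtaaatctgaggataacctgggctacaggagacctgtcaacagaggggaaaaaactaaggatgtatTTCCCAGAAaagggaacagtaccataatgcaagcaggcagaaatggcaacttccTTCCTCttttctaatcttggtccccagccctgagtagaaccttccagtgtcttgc

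All 250 bases before the RefSeq start were searched in each of the 6 genes, bases within annotated exons and not printed here included. For every gene but Fcgr1 this start lies inside the GENCODE span of the gene. In these windows Fcgr4 holds 1 ISRE match, beginning 73 bases before the start, and 1 PU.1 match at 22 bases. Fcgr1 holds 1 GAS match at 109 bases and 1 PU.1 match at 55 bases. Fcgr3 holds only a PU.1 match, at 6 bases, and Fcer1g, Fcgr2b and Fcgrt hold no match to the 3 motifs. None of these matches overlaps another. Over 27025 gene starts, 7.18% of such windows hold the GAS motif, 3.04% the ISRE motif and 23.1% the PU.1 motif, and a match describes these letters only.

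The mean levels of the 6 genes come first. The values that follow are the deposited mean level of a gene as a share, in parts per 1000000 (ppm), of the summed level of its population; the populations were normalised separately, so they are given without a test. Fcer1g was at 1253 ppm in IM and 1535 in TAM, the 80th and the 62nd highest of all genes there. Fcgr1 was at 317 ppm in both populations. Fcgr3 was at 529 in IM and 772 in TAM, and Fcgr4 at 267 in IM and 584 in TAM. The inhibitory Fcgr2b was at 466 in IM and 915 in TAM. The levels in TAM over those in IM came to a ratio of 0.997 for Fcgr1, 1.23 for Fcer1g, 1.46 for Fcgr3, 1.97 for Fcgr2b, 2.19 for Fcgr4 and 5.01 for Fcgrt, the recycling receptor, which was at 45.2 in IM and 227 in TAM. CD8 cells held far less of each: 4.23 ppm of Fcgr1, 9.86 of Fcgr3, 6.20 of Fcgr4, 9.51 of Fcgr2b, 51.0 of Fcer1g and 11.1 of Fcgrt. For the 3 ligand-binding activating receptors and Fcgr2b this was between 1.33% and 2.32% of the share in IM, for Fcer1g 4.07% and for Fcgrt 24.6%.

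**Figure D1:**
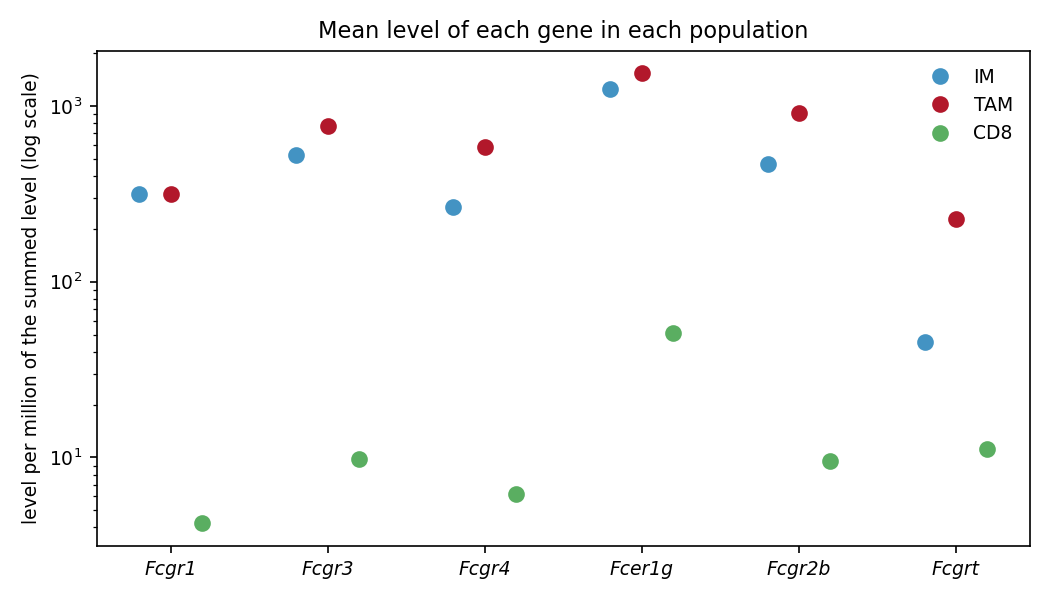
Deposited mean level of each Fc receptor gene as a share (ppm) of the summed level of its population (log scale), with 1 point for IM, TAM and CD8; no error is drawn because the tables hold no value for a single library. The points of IM and TAM coincide for Fcgr1 (317 in both), TAM is highest for the other 5 genes, and CD8 is lowest for all 6.

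To set genes against each other, the deposited level was divided by the length of the annotated exons in kilobases. On this scale IM had 68634 of Fcer1g, 14588 of Fcgr3, 10168 of Fcgr4, 5867 of Fcgr1, 3848 of Fcgr2b and 1030 of Fcgrt. TAM had 84288 of Fcer1g, 22323 of Fcgr4, 21341 of Fcgr3, 7582 of Fcgr2b, 5866 of Fcgr1 and 5175 of Fcgrt. The 3 ligand-binding activating receptors together exceeded Fcgr2b by a ratio of 7.96 in IM, 6.53 in TAM and 7.46 in CD8. The ratio depends on the length taken for Fcgr2b, whose annotated exons cover 5790 bases and whose longest transcript has 3544. With the longest transcript of each gene it was 5.54, 4.50 and 5.18, and without division by length 2.39, 1.83 and 2.13, so it was above 1 in all 3 populations by each measure. Fcgr2b stands above Fcgr1 in IM with the longest transcript (6287 against 5867), and below it with all exons. The order in TAM depends on the length too. With the longest transcript Fcgr3 stands above Fcgr4 there (27505 against 22323) and Fcgrt above Fcgr1 (6146 against 5866). An antisense gene, Gm38204, covers 155 exonic bases of Fcgr2b, and Gm45669 lies across Fcgrt with no exonic overlap. The library kit does not mark strand, so reads from these antisense genes could not be told from reads of Fcgr2b or Fcgrt where they overlap. Neither antisense gene is among the gene names of the deposited tables. The annotation used for the counts may thus differ from GENCODE M21, and the exon lengths taken here may not be those counted.

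The treatments moved few of the 6 genes past the threshold. Among 54 pairs of gene and table, 4 were called: Fcgr4 rose in IM after IL12, in IM after the combination and in TAM after the combination, and Fcgrt fell in CD8 after the combination. In IM, 0 of the 6 genes were called after SBRT, where 0.519% of all tested genes were called in either direction. There 2 of the 6 had an unadjusted p below 0.05, Fcgr3 and Fcgr4. After IL12, 1 of the 6 was called in IM, against 3.24% of all tested genes in either direction and 1.91% higher. After the combination 1 of the 6 was called in IM, against 6.72% in either direction and 3.69% higher. In TAM the counts were 0 after SBRT (2.08% of all tested genes called), 0 after IL12 (0.935%) and 1 after the combination (4.21% called, 2.24% higher). The 2 counts of 0 in TAM came with 1 gene at an unadjusted p below 0.05 after SBRT, Fcgr2b, and 2 after IL12, Fcgr1 and Fcgr4. In CD8 they were 0 after SBRT (0.471%), 0 after IL12 (2.52%) and 1 after the combination (7.47% called, 2.96% lower), with 2 genes at an unadjusted p below 0.05 after SBRT, Fcgr1 and Fcgr4, and 1 after IL12, Fcgrt. A list of 6 with 1 call is a small count beside these shares, and what follows rests on single genes.

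**Figure D2:**
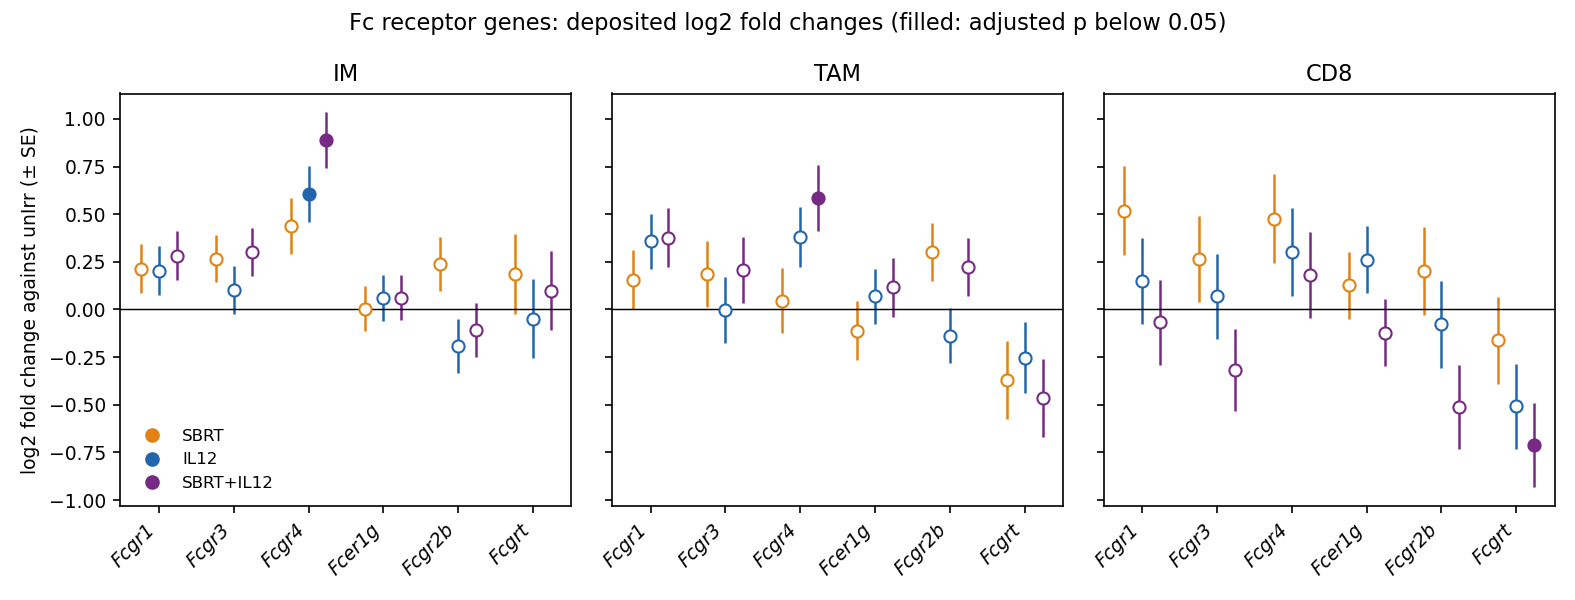
Deposited log2 fold change of each treated group over unIrr (points) with its standard error (bars) for the 6 Fc receptor genes, in 1 panel for each of IM, TAM and CD8, coloured by treatment; filled points have a deposited adjusted p below 0.05. The filled points are Fcgr4 in IM after IL12 (0.61) and the combination (0.89), Fcgr4 in TAM after the combination (0.58) and Fcgrt in CD8 after the combination (-0.71).

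Fcgr4 had the highest fold change of the 4 activating genes in all 3 IM tables, and in TAM after IL12 and the combination, though not in TAM after SBRT. In IM, the authors' deposited tables gave it a log2 fold change of 0.44 ± 0.15 after SBRT (p = 0.00281, adjusted p = 0.21), which did not pass. It rose by 0.61 ± 0.15 after IL12 (1.52-fold, DESeq2 adjusted p = 0.00251) and by 0.89 ± 0.15 after the combination (1.85-fold, DESeq2 adjusted p = 2.2e-07), with 95% intervals of 0.32 to 0.90 and 0.60 to 1.18. Ordered by the Wald statistic, from the highest, it stood at place 159 of 16829 genes tested after IL12 and 103 of 18660 after the combination. The group levels implied by the deposited mean and fold changes, on the scale of normalised counts, were 8916 in unIrr, 12096 after SBRT, 13578 after IL12 and 16496 after the combination, so unIrr was lowest and the combination highest. In a sorted population, more cells with a high level and more RNA per cell cannot be told apart, and this holds for every change given here.

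In TAM, Fcgr4 had a higher level in unIrr and smaller fold changes. The authors' deposited tables gave 0.05 ± 0.17 after SBRT (adjusted p = 0.997) and 0.38 ± 0.16 after IL12 (p = 0.0169, adjusted p = 0.47), neither past the threshold. It rose by 0.58 ± 0.17 after the combination (1.50-fold, DESeq2 adjusted p = 0.0223, interval 0.25 to 0.92), at place 285 of 17224 genes. This call was lost when the spread of the Wald statistics was estimated from the table itself (an empirical null; adjusted p = 0.12, the highest of 3 alternatives, the lowest being 0.0194), while the IM calls passed in all 3 (highest 0.0144 after IL12 and 0.000306 after the combination). The implied levels in TAM were 23007 in unIrr, 23768 after SBRT, 29923 after IL12 and 34509 after the combination. The unIrr and SBRT groups were thus close to each other and both groups with IL-12 stood above them.

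**Figure D3:**
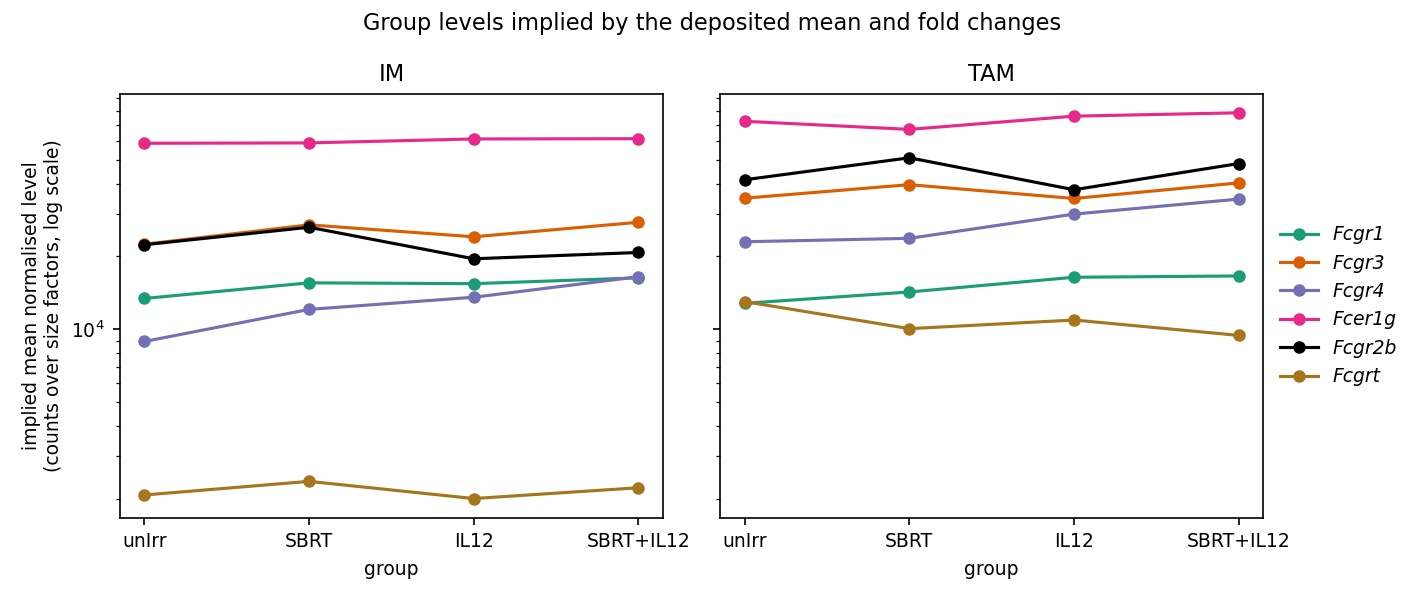
Mean level of each Fc receptor gene in each group, as implied by the deposited mean level and fold changes (normalised counts, log scale, not divided by length), in IM and TAM; lines only join the points of a gene, and no error is drawn. Fcgr4 climbs from 8916 to 16496 in IM and from 23007 to 34509 in TAM, while the line of Fcer1g is nearly flat, from 58673 to 61282 in IM.

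Fcgr1, the high-affinity receptor, had positive fold changes in all 6 myeloid tables and was called in none. In IM the authors' deposited tables gave it 0.21 ± 0.13 after SBRT, 0.20 ± 0.13 after IL12 and 0.28 ± 0.13 after the combination (adjusted p = 0.84, 0.60 and 0.21). In TAM they gave 0.16 ± 0.15, 0.36 ± 0.14 and 0.38 ± 0.15 (adjusted p = 0.92, 0.41 and 0.18). Its interval after the combination reached from 0.03 to 0.54 in IM and from 0.07 to 0.68 in TAM. The implied levels lay between 13420 and 16325 in IM and between 12816 and 16624 in TAM, lowest in unIrr and highest after the combination in both.

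Fcgr3, the low-affinity activating receptor, was called in no table. The authors' deposited tables for IM gave it 0.27 ± 0.12 after SBRT, 0.10 ± 0.12 after IL12 and 0.30 ± 0.12 after the combination (adjusted p = 0.60, 0.88 and 0.14). Those for TAM gave 0.19 ± 0.17 after SBRT, -0.00 after IL12 and 0.21 ± 0.17 after the combination (adjusted p = 0.90, 0.9996 and 0.69). Its smallest value in both populations came after IL12 alone, and that of Fcgr4 after SBRT alone; differences between treatments are given below, and none passed.

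Fcer1g, the signalling chain shared by the activating receptors, had fold changes near 0. Its deposited log2 fold changes in the authors' deposited tables were 0.00, 0.06 and 0.06 in IM and -0.11, 0.07 and 0.12 in TAM after SBRT, IL12 and the combination, each with an SE between 0.12 and 0.15. After the combination in IM its 95% interval reached from -0.17 to 0.30, below the lower bound of the interval of Fcgr4 (0.60). The level per kilobase of Fcer1g was 2.24 times the sum of Fcgr1, Fcgr3 and Fcgr4 in IM and 1.70 times in TAM.

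Fcgr2b, the inhibitory receptor, was called in no table and had fold changes of both signs. In the authors' deposited tables for IM it was at 0.24 ± 0.14 after SBRT, -0.19 ± 0.14 after IL12 and -0.11 ± 0.14 after the combination (adjusted p = 0.83, 0.69 and 0.82). In those for TAM it was at 0.30 ± 0.15 after SBRT (adjusted p = 0.49), -0.14 ± 0.15 after IL12 and 0.22 ± 0.15 after the combination (adjusted p = 0.9995 and 0.59). The implied levels in IM were 22365 in unIrr, 26409 after SBRT, 19571 after IL12 and 20778 after the combination. In TAM they were 41469, 51104, 37723 and 48389 in the same order. In both populations the SBRT group was highest and the IL12 group lowest.

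Fcgrt, which recycles IgG and does not start an activating signal, had negative fold changes in TAM that did not pass the threshold. The authors' deposited tables for TAM gave -0.37 ± 0.20, -0.25 ± 0.19 and -0.46 ± 0.20 after SBRT, IL12 and the combination (adjusted p = 0.57, 0.9995 and 0.23). Those for IM gave 0.19 ± 0.21, -0.05 ± 0.21 and 0.10 ± 0.21 (adjusted p = 0.99, 0.98 and 0.91). The implied TAM levels were 13029 in unIrr, 10072 after SBRT, 10935 after IL12 and 9450 after the combination, so unIrr was highest. B2m, its partner chain and also that of MHC class I, rose in IM after the combination in the authors' deposited table (0.40 ± 0.11, DESeq2 adjusted p = 0.00547) and was at 0.30 in TAM (adjusted p = 0.26).

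The balance of activating and inhibitory receptors was compared as the log2 fold change of each activating gene minus that of Fcgr2b in the same table, over 24 pairs in IM and TAM. Its error is not known exactly, because both genes were measured in the same libraries. The sum of both SEs, the widest error for SEs of this size, was used for the 95% intervals, with no p. Where the SEs are too narrow, these intervals are too. Of the 24 differences 16 were positive and 2 had an interval without 0, both of Fcgr4 in IM. After IL12 the difference was 0.80 (0.23 to 1.37), and after the combination 0.99 (0.43 to 1.56), a 1.99-fold change in the ratio of Fcgr4 to Fcgr2b. That ratio of implied normalised counts went from 0.40 in unIrr to 0.46 after SBRT, 0.69 after IL12 and 0.79 after the combination in IM. With the errors added in quadrature, as for independent genes, 7 of the 24 intervals left out 0. The 5 added were Fcgr1 in IM after IL12 (0.40), Fcgr1 and Fcgr3 in IM after the combination (0.39 and 0.41), and Fcgr1 and Fcgr4 in TAM after IL12 (0.49 and 0.52).

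By treatment, the signs of these differences varied, and they are given as values without a test. After IL12 alone 4 of 4 were positive in IM (0.25 to 0.80) and 4 of 4 in TAM (0.13 to 0.52). After SBRT alone 2 of 4 were positive in IM (-0.23 to 0.20) and 0 of 4 in TAM (-0.41 to -0.12). After the combination 4 of 4 were positive in IM (0.17 to 0.99) and 2 of 4 in TAM (-0.11 to 0.36). The 4 differences of a table share the value of Fcgr2b, and the tables share unIrr, so these counts are not independent. In TAM the Fcgr4 difference was 0.52 after IL12 (-0.08 to 1.11) and 0.36 after the combination (-0.27 to 0.997), and the ratio of implied counts was 0.55 in unIrr, 0.47 after SBRT, 0.79 after IL12 and 0.71 after the combination.

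**Figure D4:**
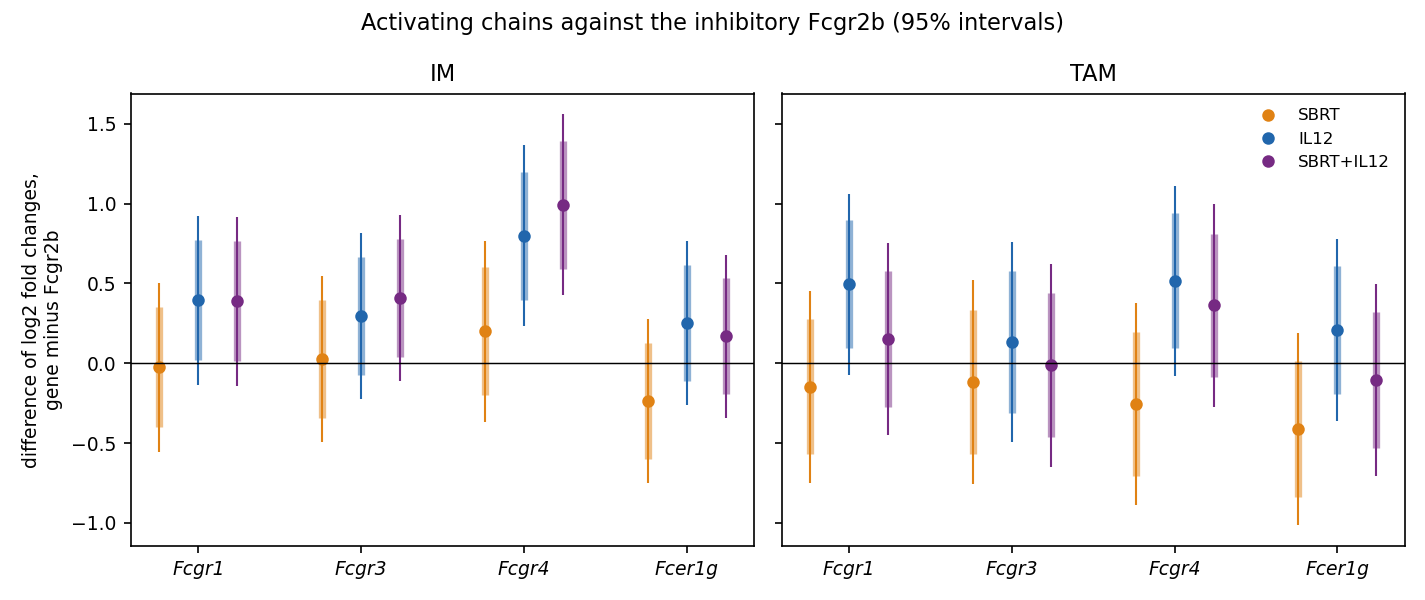
Log2 fold change of each activating gene (Fcgr1, Fcgr3, Fcgr4) or the shared chain gene Fcer1g minus that of the inhibitory Fcgr2b, in IM and TAM, coloured by treatment; thin bars are 95% intervals from summed SEs and thick bars those from SEs added in quadrature. The thin bars leave out 0 only for Fcgr4 in IM after IL12 (0.80) and after the combination (0.99), and in TAM all 4 points after SBRT lie below 0.

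Treatments were then compared with each other within each population, by the difference of their effects with a normal test adjusted over all genes. An effect here is the Wald statistic times 1 SE per gene shared by the population's tables. It can differ somewhat from the deposited fold change: for Fcgr4 in TAM after IL12 it was 0.40 against 0.38. None of the 6 genes passed in any of 12 such comparisons (0 of 72 tests, lowest adjusted p = 0.999), and 5 of the 72 had an unadjusted p below 0.05. Few genes of any kind passed: for the combination minus SBRT, the combination minus IL12, SBRT minus IL12 and the combination minus both single effects, the shares were 0.204%, 0%, 0.0244% and 0.00305% in IM, 0.00309%, 0.0741%, 0.0896% and 0.0124% in TAM, and 0.0755%, 0.00302%, 0.0211% and 0.00302% in CD8. Fcgr4 differed between the combination and SBRT by 0.45 ± 0.21 in IM (unadjusted p = 0.0324) and 0.52 ± 0.24 in TAM (unadjusted p = 0.0269). Between the combination and IL12 it differed by 0.28 ± 0.21 in IM, with an interval of -0.13 to 0.69, and by 0.17 ± 0.24 in TAM (-0.29 to 0.63). The change of Fcgr4 after the combination lay -0.16 ± 0.26 from the 2 single changes added together in IM and 0.12 ± 0.29 in TAM. For Fcgr2b the difference of SBRT from IL12 was 0.43 ± 0.20 in IM (unadjusted p = 0.0309) and 0.44 ± 0.21 in TAM (unadjusted p = 0.0389). The Fcgr4 and Fcgr2b differences had like sizes in IM and TAM, and none of them passed the adjusted test. In CD8, Fcgr2b differed between the combination and SBRT by -0.72 ± 0.32 (unadjusted p = 0.0238).

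The responses of IM and TAM were compared gene by gene in the same way over 27039 genes. None of the 6 genes passed for any treatment (0 of 18 tests, 0 at an unadjusted p below 0.05, lowest adjusted p = 0.64), against 0.285% of all genes after SBRT, 0.0703% after IL12 and 1.04% after the combination. The change of Fcgr4 over unIrr was higher in IM than in TAM by 0.39 ± 0.22 after SBRT (-0.04 to 0.83). The difference was 0.21 ± 0.22 after IL12 (-0.23 to 0.64) and 0.32 ± 0.22 after the combination (-0.12 to 0.75). The call of Fcgr4 after IL12 in IM and not in TAM is therefore not shown to be a difference between the populations. Fcgrt differed by 0.55 ± 0.29 after SBRT (unadjusted p = 0.0567) and 0.55 ± 0.29 after the combination (unadjusted p = 0.0554), and by 0.22 ± 0.29 after IL12.

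Markers of the myeloid gates changed beside Fcgr4. The share of all tested genes called there was 3.24% in IM after IL12 and 6.72% after the combination. In TAM after the combination it was 4.21%. In IM after IL12, 2 of 9 macrophage markers were called in the authors' deposited table, C1qb higher (0.53) and Mrc1 lower (-0.998), with a list median of 0.08. In the authors' deposited table for IM after the combination, 5 of 9 macrophage markers were called: C1qa (0.60), C1qb (0.71) and C1qc (0.74), subunits of complement C1q, were higher, and Mrc1 (-0.99) and Ms4a7 (-0.87) lower, with a list median of 0.10. Of 7 monocyte markers 2 were higher there, Ly6c1 (1.16) and Ly6c2 (1.10), and 4 lower, Ccr2 (-0.58) and F13a1 (-1.03) among them, and the same counts held after IL12. Of 7 neutrophil markers, cells that also carry Fcgr4, 1 was called in IM after each of these treatments, Mmp8, which was lower. Of 6 dendritic cell markers, at 45.4 ppm in all in IM, Cd209a (-1.76) and Flt3 (-1.36) fell in IM after IL12 in the authors' deposited table. After the combination Cd209a (-2.31) and Flt3 (-1.46) fell in IM and Clec9a (0.73) rose in the authors' deposited table. In TAM after the combination Mrc1 fell in the authors' deposited table (-0.78), the 1 of 9 macrophage markers called, as did the dendritic cell marker Itgax (-0.62), the 1 called of 4 tested. The part of these shifts in the result for Fcgr4 was not tested. The gates held their defining genes: Ly6c2 was at 1035 ppm in IM and 49.8 in TAM, Adgre1, the gene of F4/80, at 344 and 726, and Cd8a at 964 in CD8, 4.68 in IM and 4.99 in TAM. Summed neutrophil markers were at 405 ppm in IM and 175 in TAM, of which Csf3r alone held 202 and 162. S100a8 was at 60.9 and 5.68, Cxcr2 at 0.47 and 0.28, and Ly6g at 0.59 and 0.18. Natural killer markers, whose cells also carry Fcgr3, were at 13.6 in IM and 0.97 in TAM.

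In the CD8 gate the 6 genes were low, and so were the genes of macrophages. The 9 macrophage markers summed to 217 ppm in CD8, against 6515 in IM and 27423 in TAM, with Csf1r at 13.5, and Lyz2, a gene of monocytes, macrophages and neutrophils, at 177. Dendritic cell markers summed to 70.0 ppm in CD8 (45.4 in IM, 67.9 in TAM), and B and plasma cell markers to 21.4 (6.67 and 14.4). Of these 2 lists, Cd79b (-0.86) fell in CD8 after SBRT. After the combination their medians in CD8 were 0.10 and -0.27, with 0 called (1 in each at an unadjusted p below 0.05). Fcgrt fell there after the combination in the authors' deposited table (-0.71 ± 0.22, 0.61-fold, DESeq2 adjusted p = 0.0231, interval -1.14 to -0.28). Its implied levels were 636 in unIrr, 569 after SBRT, 447 after IL12 and 388 after the combination. This call too was lost when the spread of the statistics was taken from the table (adjusted p = 0.39, the highest of 3 alternatives). Fcgr2b was at -0.51 ± 0.22 in that table (adjusted p = 0.15), Fcgr3 at -0.32 ± 0.22, Fcer1g at -0.12 ± 0.18, Fcgr1 at -0.07 ± 0.22 and Fcgr4 at 0.18 ± 0.23. The macrophage markers had negative fold changes alongside: their median log2 fold change was -0.49 against -0.03 over all tested genes, 7 of 9 had an unadjusted p below 0.05 and 0 of 9 were called. A list of 7 myeloid markers, which shares Csf1r and Adgre1 with them, had a median of -0.42. Of these, 3 had an unadjusted p below 0.05 and 0 were called, and Ly6c2 was at 0.27. After SBRT the median of the macrophage markers was 0.22, with 0 of 9 at an unadjusted p below 0.05. That of the 7 myeloid markers was 0.29, with 1 at an unadjusted p below 0.05. There Fcgr1 was at 0.52 and Fcgr4 at 0.48 in the authors' deposited table (unadjusted p = 0.0262 and 0.0413), not called. The part of the macrophage, myeloid, dendritic and B cell markers in the values of the 6 genes in CD8 was not tested.

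Among 30 genes that carry or restrain Fc receptor signals, the counts called in IM were 0 after SBRT (3 at an unadjusted p below 0.05), 1 after IL12 and 2 after the combination. All tested genes were called there at 0.519%, 3.24% and 6.72%, so these counts were near the background and say nothing particular about the list. After IL12, the gene that rose in IM was Dok1, an adaptor that dampens tyrosine kinase signals (0.38 ± 0.12 in the authors' deposited table, DESeq2 adjusted p = 0.0327). After the combination those that fell in IM in the authors' deposited table were the ubiquitin ligase Cbl (-0.50 ± 0.14, DESeq2 adjusted p = 0.00845) and the Src family kinase Fgr (-0.41 ± 0.13, DESeq2 adjusted p = 0.0372). In TAM the 1 gene of the 30 called after each treatment (2.08%, 0.935% and 4.21% of all tested genes after SBRT, IL12 and the combination) was Blnk, an adaptor downstream of Syk, which fell by 0.68, 0.69 and 1.24 after SBRT, IL12 and the combination in the authors' deposited tables (DESeq2 adjusted p = 0.0192, 0.00879 and 1.5e-08). Blnk also works in B cells, and of 6 B and plasma cell markers, at 14.4 ppm in all, Cd79b (-0.71) and Jchain (-0.53) fell in TAM after SBRT and Jchain (-0.53) after the combination, with 0 called after IL12 (0 at an unadjusted p below 0.05). Their part in the result for Blnk was not tested. Syk, the kinase that receives the signal, Inpp5d, the phosphatase recruited by FcγRIIB, and Tyrobp, an adaptor like Fcer1g, were called in no myeloid table. In IM after the combination Syk was at -0.05, Inpp5d at -0.27 and Tyrobp at -0.00, and in TAM at -0.09, -0.19 and 0.05, in the authors' deposited tables. The list medians lay between -0.08 and 0.07 in the 6 myeloid tables, where the medians of all tested genes lay between -0.02 and 0.00. In CD8, 0 were called after SBRT and after IL12 (2 and 5 at an unadjusted p below 0.05), against 0.471% and 2.52% of all tested genes, and after the combination 3 fell in the authors' deposited table, against 2.96% of all tested genes called lower: Hcst (-0.46), an adaptor of activating receptors, Ptpn6 (-0.49), the phosphatase SHP-1, and Pik3cd (-0.35), a catalytic subunit of PI3-kinase. The empirical null left 0 calls in IM after IL12 and after the combination and 0 in CD8 after the combination, and adjustment over all genes left 0 and 1 in IM.

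Among 14 other Fc-binding and Fc receptor-like genes, of which 6 to 8 were tested per table, Fcrls changed most. Fcrls, a gene of the Fc receptor-like family, fell in 5 of the 6 myeloid comparisons of the authors' deposited tables: by 1.96 after IL12 and 2.30 after the combination in IM, and by 1.65, 1.33 and 1.86 after SBRT, IL12 and the combination in TAM. After SBRT in IM it was at -0.97 in the authors' deposited table (adjusted p = 0.11). Its level was low, at 4.56 ppm in IM and 19.8 in TAM, against 267 and 584 for Fcgr4. Fcrlb, another member of that family, rose in IM after the combination in the authors' deposited table (0.52 ± 0.18, DESeq2 adjusted p = 0.0489). Trim21, an antibody receptor in the cytosol, was at 0.41 in IM after IL12 and 0.41 after the combination in the authors' deposited tables (adjusted p = 0.0927 and 0.0579). In CD8 none of this list was called after SBRT, IL12 or the combination (1 at an unadjusted p below 0.05 in each), beside 0.471%, 2.52% and 7.47% of all tested genes. In IM 0 of 8 tested were called after SBRT (2 at an unadjusted p below 0.05), 1 of 6 after IL12 and 3 of 8 after the combination. All tested genes were called there at 0.519%, 3.24% and 6.72%. In TAM 1 of 8, 1 of 8 and 1 of 7 were called, Fcrls each time, beside 2.08%, 0.935% and 4.21% of all tested genes. The 3 calls of this list in IM after the combination went to 1 under the empirical null.

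Among genes through which interferon gamma acts on Fc receptor genes, a list of 9, changes in Irf8, Ifngr1 and Ifngr2 passed the test in some tables. Irf8, a regulator of myeloid cells that acts with PU.1, rose in TAM after the combination (0.53 ± 0.15, DESeq2 adjusted p = 0.014 in the authors' deposited table), and it was at 0.41 in TAM after IL12 and 0.38 in IM after the combination (adjusted p = 0.15 and 0.0653 in the authors' deposited tables). Ifngr1, a chain of the interferon gamma receptor, fell in IM by 0.69 after IL12 and by 0.71 after the combination in the authors' deposited tables. Spi1 was called in no table and lay between -0.06 and 0.08 in the 6 myeloid ones. After SBRT alone 0 of the 9 genes on the list were called in IM (2 at an unadjusted p below 0.05), 0 in TAM (1) and 0 in CD8 (2), beside 0.519%, 2.08% and 0.471% of all tested genes, so nothing particular to the list is read from these counts. In CD8 Ifngr2, the other chain, fell by 0.81 after IL12 and by 1.18 after the combination in the authors' deposited tables. After IL12 and the combination, all tested genes were called at 3.24% and 6.72% in IM. The shares were 0.935% and 4.21% in TAM, and 2.52% and 7.47% in CD8. The calls named here are of single genes and are not read as a trait of the list. The call of Irf8 in TAM after the combination was lost under the empirical null, and that of Ifngr2 in CD8 after IL12 was lost under the empirical null and under adjustment over all genes.

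The genes whose changes were most like those of each receptor were sought over the 6 myeloid fold changes, as the smallest Euclidean distance among 12709 genes with a mean level of at least 50 in IM and TAM. For Fcgr4 the nearest were Otud1 (distance 0.10), Psmb8 (0.27), Glrx (0.27), Fgl2 (0.28) and Txn1 (0.28). The nearest of the other 5 receptor genes was Fcgr1, only the 483rd in order (0.80). For Fcgr1 they were Kif3b, Hk2, Rnf31, Rgmb and Dennd1a (0.08 to 0.13), for Fcgr3 Trpm4, Snx5, Snhg12 and Cox6b1 among others (0.09 to 0.14), and for Fcer1g Tmem243, Rnf4, Ppp1r11, Grb2 and Rnf185 (0.07 to 0.09). For Fcgr2b they were AC158971.1, RP24-155O13.4, Tmem101, Csf2rb2 and Hist1h3e (0.14 to 0.22), and for Fcgrt Plod1, Erlin2, Trim59, Eef2kmt and RP24-269P21.1 (0.12 to 0.16). No receptor gene was among the 5 nearest of another. The 3 tables of a population share unIrr, so the fold changes of a gene in them are not independent. Genes that hardly move have many near neighbours, so these distances are descriptions.

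**Figure D5:**
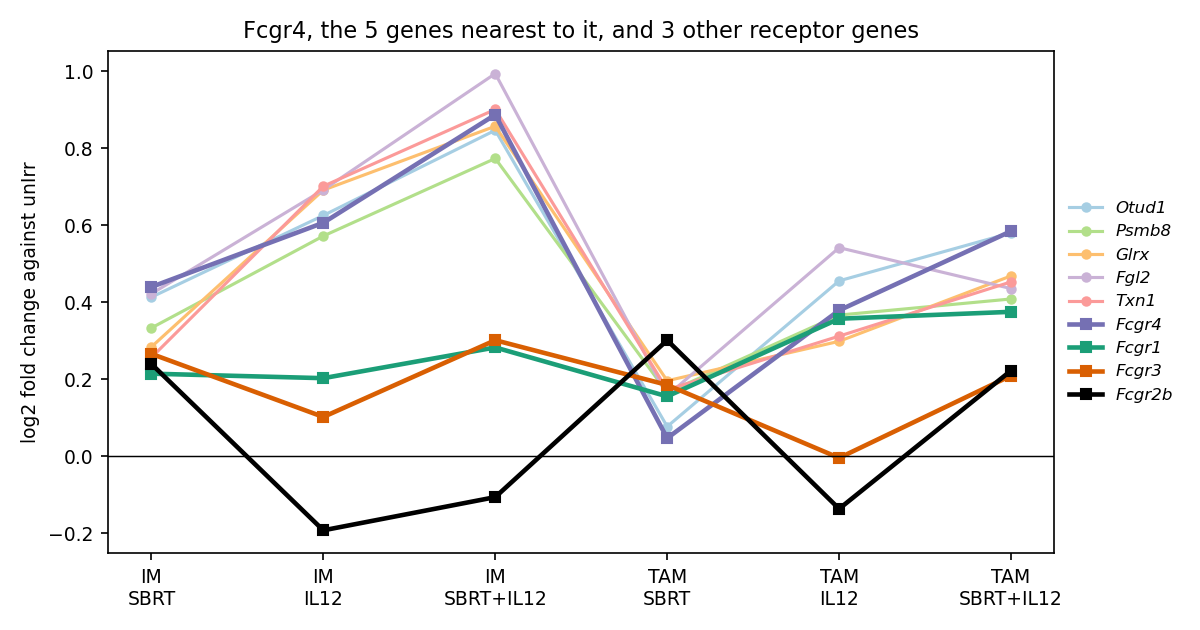
Deposited log2 fold changes over unIrr in the 6 myeloid tables for Fcgr4, the 5 genes nearest to it (thin lines) and Fcgr1, Fcgr3 and Fcgr2b (thick lines); lines only join the points of a gene. Fcgr4 goes from 0.44 to 0.89 across the IM tables and from 0.05 to 0.58 across those of TAM, with Otud1 nearest to it, while Fcgr2b lies below 0 after IL12 in both populations.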

How the data were processed

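RNA was sequenced from 33 libraries in 12 groups, made, per the labels' protocols, with the TruSeq RNA V2 kit (no strand information). The submitters' processing notes name GRCm38 and, for the reads, STAR 2.6.0c, Salmon, featureCounts, Subread, FastQC 0.11.8 and Trimmomatic 0.36. Their roles and the DESeq2 version and formula are not given in the sources used here. The 9 tables deposited by the authors hold, per the file headers, a mean normalised signal (counts over size factors), a log2 fold change (treated over unIrr), a Wald statistic (a score), a p-value and an adjusted p-value after a filter on mean level. No library's values or counts were analysed here, so no fit could be repeated.

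From these, Python 3.11.15, pandas 2.3.3, numpy 2.4.6 and scipy 1.17.1 gave the rest. The SE of a fold change is its ratio to the statistic where the statistic is at least 0.25 in size, and otherwise that shared over the population's other tables (root mean square). The limit of 0.25 was set after seeing the data and departs from the plan, which had none: near 0 the ratio breaks down, and among the genes tested for TAM after IL12, 417 had a fold change and a statistic of opposite sign. Differences between treatments or populations are the statistic times the shared SE, tested against a normal distribution and adjusted by Benjamini-Hochberg over all genes, checked on simulated data. They leave out the covariance through the shared unIrr libraries, which makes the tests within a population conservative. Implied group levels were solved from the mean level, the fold changes and the numbers of libraries (matplotlib 3.10.9 drew the plots). Annotation was GENCODE M21.

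The 6 genes and the lists were chosen with earlier results of these data known. Named by rule were all 6 genes, for each list and comparison up to 4 called genes, by smallest adjusted p, and the 5 nearest genes of each member, leaving out predicted genes (names with Gm or Rik, or ending in ps). Syk, Inpp5d, Tyrobp, Trim21, Spi1, B2m in TAM, Irf8 where not called and Fcrls after SBRT in IM were named for their role, and the markers by their lists. Of the genes these rules name, 2 are not reported here. Alternatives were adjustment over all genes with a p, genes with a level of at least 50, other SEs and other lengths. A further alternative, the empirical null, scaled the statistics by their own spread without centring them.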

Additional observations from a re-analysis of the deposited data

How the results depend on the processing

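The calls of Fcgr4 in IM after IL12 and after the combination passed under all 3 alternatives tried for them. Under the empirical null, the count of receptor genes called went from 1 to 0 in TAM after the combination (Fcgr4) and from 1 to 0 in CD8 after the combination (Fcgrt). The other alternatives for these counts left them as they were. The count of differences from Fcgr2b whose interval leaves out 0 rose from 2 to 7 with the errors added in quadrature. The ratio of the 3 activating receptors to Fcgr2b moved from 7.96 to 2.39 in IM, 6.53 to 1.83 in TAM and 7.46 to 2.13 in CD8 without division by length, and to 5.54, 4.50 and 5.18 with the longest transcripts, a choice added after seeing the data. Of 270 alternative tests of single-gene differences between treatments or populations, 0 passed, with a lowest adjusted p of 0.078. The alternatives for single-gene calls kept the deposited fold changes. They could therefore not reverse the direction of a call, and whether a direction is robust was not tested. No paired analysis was possible because the tables hold no values of single libraries, and for the same reason no replicate could be left out and no 1 library can be shown to carry a result. The unknown depth limits what the CD8 values can show, where the 6 genes are low.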
